A study of Mus musculus with 4 samples.

Results

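Dividing CD8 T cells were picked out of single-cell RNA data on tumour-infiltrating lymphocytes by 7 transcripts of the second gap phase and mitosis. A cell barcode, the tag that marks the RNA of 1 droplet, was called mitotic when the unique molecular identifiers (UMIs, each standing for 1 captured RNA molecule) of Birc5, Ube2c, Cenpf, Ccnb1, Ccnb2, Cdc20 and Plk1 summed to at least 5. Only barcodes with at least 500 detected genes and at most 10% mitochondrial UMIs were considered. Of 39473 deposited barcodes 38316 passed these limits, and 3018 of them were mitotic. The gate was set on the RNA itself, so the levels of these 7 genes are given as a description.

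The cells came from B16F10 tumours, a transplantable mouse melanoma line, in C57BL/6J mice aged 6 to 8 weeks. Live cells positive for CD45, CD3 and CD8 were sorted after Liberase and DNase digestion and a Percoll step, and were sequenced with a 10x 5′ gene expression kit and a T cell receptor kit. There were 2 groups of 2 libraries. The sgScr group carried a scrambled control guide RNA, and the sgArid1a group a guide against Arid1a, whose protein belongs to the SWI/SNF chromatin remodellers. The labels leave out which cells received a guide, how they were made, and whether a library stands for 1 animal or a pool. Nor do they say that the replicates came from separate mice, so p-values measure the spread between these libraries, which may be technical. Values below are given in the order sgScr replicate 1, sgScr replicate 2, sgArid1a replicate 1, sgArid1a replicate 2 unless stated otherwise.

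A T cell that meets its antigen in a tumour leaves quiescence, copies its DNA and builds a mitotic spindle. Cyclin B with its kinase drives entry into mitosis, and Plk1 and the chromosomal passenger complex guide spindle assembly. The anaphase promoting complex, with Cdc20 as activator and Ube2c as ubiquitin-conjugating enzyme, then destroys cyclin B and lets the chromosomes part. Genes of this programme share a control: the MuvB complex with its partners acts through the cell cycle genes homology region (CHR), often near CCAAT boxes bound by nuclear factor Y.

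The promoters of 5 gate genes are shown because the gate genes were selected as a set that is switched on together, and these letters are the elements named above. Each runs 5′ to 3′ on the gene's strand from 100 bases before to 30 bases after the annotated start, from RefSeq promoters on GRCm38.p6. Capitals mark the CHR (TTTGAA or TTCGAA, or either read on the other strand, TTCAAA or TTCGAA) and the CCAAT box (CCAAT, or ATTGG on the other strand). Ube2c lies at chr2:164769829-164769958 (plus strand), Cenpf at chr1:189688057-189688186 (minus), Ccnb1 at chr13:100786457-100786586 (minus), Ccnb2 at chr9:70421525-70421654 (minus) and Cdc20 at chr4:118437314-118437443 (minus).
Ube2c: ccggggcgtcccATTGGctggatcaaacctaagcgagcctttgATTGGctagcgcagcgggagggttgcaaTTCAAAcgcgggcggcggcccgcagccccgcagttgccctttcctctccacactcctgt
Cenpf: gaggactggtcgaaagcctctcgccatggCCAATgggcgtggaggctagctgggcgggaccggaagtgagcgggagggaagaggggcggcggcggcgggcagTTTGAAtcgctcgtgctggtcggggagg
Ccnb1: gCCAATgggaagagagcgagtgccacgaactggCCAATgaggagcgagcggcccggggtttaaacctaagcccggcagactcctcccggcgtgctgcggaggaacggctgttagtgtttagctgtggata
Ccnb2: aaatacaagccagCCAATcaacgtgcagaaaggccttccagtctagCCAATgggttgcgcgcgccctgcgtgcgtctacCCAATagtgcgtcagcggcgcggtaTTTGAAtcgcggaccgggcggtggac
Cdc20: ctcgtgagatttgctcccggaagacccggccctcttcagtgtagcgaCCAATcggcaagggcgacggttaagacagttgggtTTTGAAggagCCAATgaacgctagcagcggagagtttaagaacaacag

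Ube2c, Cenpf, Ccnb2 and Cdc20 show a CHR inside these letters, and Plk1 holds one just beyond them, at bases 31 to 36 after its start. In the window of 250 bases before to 50 after the start, 5 of the 7 gate promoters held a CHR and 6 held a CCAAT box, with no CCAAT box in Birc5. Among 74 promoters of 67 other genes on the mitosis lists, 66.2% held a CHR, 70.3% a CCAAT box and 51.4% both. The 29 promoters of S phase genes gave 17.2%, 69.0% and 13.8%, and all 32851 promoters of the same length gave 19.2%, 37.4% and 7.52%. These are letter matches on both strands, each motif searched on its own, so that matches can share a base, and no binding was measured.

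Within the mitotic barcodes all 7 gate genes were read in every library. Ube2c gave the largest part, 32.1, 32.1, 35.1 and 35.6% of the gate UMIs, and its level in the summed UMIs was 643, 694, 744 and 682 counts per 1000000 UMIs (CPM). Birc5, the survivin subunit of the passenger complex, stood at 440, 488, 512 and 463 CPM. The kinetochore and nuclear envelope protein gene Cenpf was at 235, 251, 253 and 181 CPM.

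The cyclins and the kinase were lower. Ccnb2 read 298, 307, 265 and 243 CPM, Ccnb1 read 130, 121, 113 and 107 CPM, Cdc20 read 146, 172, 137 and 138 CPM, and Plk1 read 114, 131, 99.1 and 98.9 CPM. The summed gate level was 2006, 2166, 2121 and 1913 CPM, so sgScr and sgArid1a libraries overlapped. In the other passing barcodes it was 14.6, 18.2, 53.2 and 35.2 CPM, with both sgArid1a libraries above both sgScr libraries. A UMI of Birc5 was seen in 93.6 to 96.5% of mitotic barcodes of a library and one of Plk1 in 51.3 to 65.9%.

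**Figure D1:**
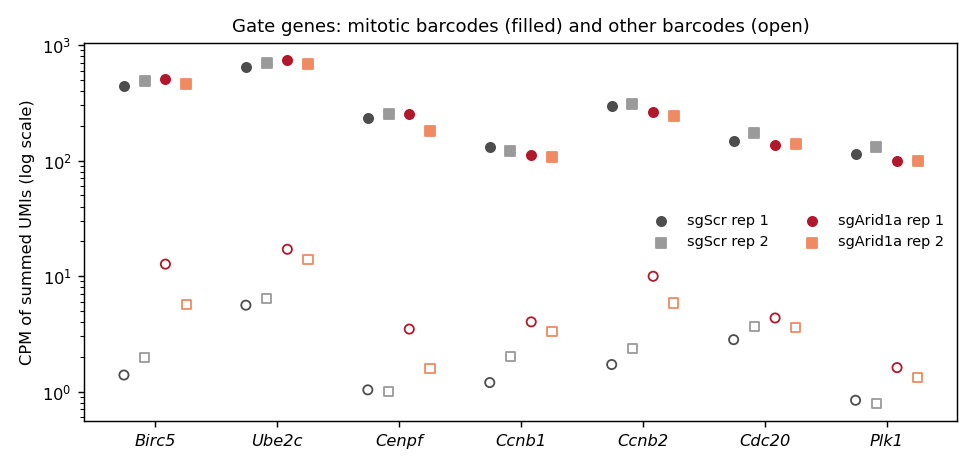
Level of the 7 gate genes in the summed UMIs of each library, in CPM on a log scale; filled symbols are mitotic barcodes, open symbols all other passing barcodes, grey sgScr and red sgArid1a. The filled symbols of the 4 libraries lie close together for each gene, while among the open symbols sgArid1a lies above sgScr for most genes; the gate fixed the gap between filled and open symbols.

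Most mitotic barcodes lay well above the threshold. The median gate sum was 23, 25, 17 and 24 UMIs, the highest 178, 180, 118 and 213, and a median of 6, 6, 5 and 6 of the 7 genes was seen per barcode. Just inside the threshold, at a sum of 5, stood 15, 19, 82 and 79 barcodes with median depths of 13154, 12500, 8959 and 14589 UMIs. Just outside, at 4, stood 12, 25, 87 and 87 barcodes with median depths of 13218, 12938, 8058 and 10262 UMIs. Of the barcodes not called, 4.32, 5.08, 8.93 and 10.3% had 1 to 4 gate UMIs, so the other barcodes held some gate RNA, and the sgArid1a libraries a larger share of such barcodes.

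Mitotic barcodes were deep. Their median depth was 15704, 15408, 10352 and 17793 UMIs against 3689, 3538, 2249 and 3702 in the others, a ratio of 4.26 to 4.81. They made up 13.4, 13.2, 29.1 and 35.0% of the UMIs of passing barcodes. Depth took part in the gate, since a deeper barcode reaches 5 UMIs more easily, and barcodes that carried more than 1 receptor beta segment (2 UMIs or more for each), as doublets can, were 28.1, 27.3, 12.7 and 23.5% of the mitotic and 10.5, 9.97, 6.12 and 11.8% of the other barcodes. No doublet caller was run.

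The CD8 T cell label held. Markers of CD8 T cells summed to 6561 to 7097 CPM in the mitotic sums, with Cd3e at 878, 866, 826 and 889 CPM and Cd8a at 645, 706, 677 and 711 CPM. Cd4, which a CD8 T cell lacks, was at 0.209 to 2.11 CPM and the regulatory T cell factor Foxp3 at 0 to 6.32 CPM. After each barcode was thinned to 2000 UMIs, a Cd8a UMI was found in 72.9 to 74.7% and a Cd4 UMI in 0 to 0.392% of mitotic barcodes.

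Markers of other cell types were low beside those of CD8 T cells. B cell markers summed to 59.1 to 81.0 CPM, mostly Ighm (55.3 to 77.0), below the 147 to 177 CPM of the other barcodes. Macrophage markers summed to 189 to 226 CPM against 110 to 155 in the other barcodes, mostly Cst3, with Lyz2 at 0.417 to 2.46 and C1qa at 0.175 to 1.05. Dendritic and MHC class II markers reached 143 to 245 CPM against 79.1 to 126, mostly Cd74, with Flt3 and Siglech at 0. The CD4 and regulatory T cell list reached 145 to 178 CPM against 58.4 to 116, nearly all of it Ikzf2 (96.7 to 114) and Ctla4 (43.0 to 54.1), which activated CD8 T cells can also express. Each of these 3 lists was higher in mitotic than in other barcodes in all 4 libraries, and their part in the results was not tested.

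Natural killer markers summed to 139, 114, 79.9 and 76.2 CPM against 58.0, 64.2, 91.5 and 89.0. Most of the mitotic sum was Eomes, at 131, 107, 56.2 and 50.8 CPM against 39.8, 48.4, 38.1 and 41.0 in the other barcodes. Ncr1 was at most 0.0875 CPM and Gata2 at 0. Neutrophil markers were at most 0.0351 CPM with 5 of 6 at 0, red cell markers at most 0.0701 with 4 of 6 at 0, and fibroblast and endothelial markers 3.96 to 9.84 with Col1a2, Col3a1, Pdgfra and Cdh5 at 0. Melanoma markers summed to 17.1, 15.9, 5.86 and 6.59 CPM against 5.05 to 7.93, with Tyr, Sox10 and Slc45a2 at 0 and most of the sum from Trpm1 (13.6, 13.8, 3.85 and 3.30). Between 78 and 231 cell barcodes were shared by each of the 6 pairs of libraries, and 2 of the shared barcodes were mitotic in both libraries of their pair.

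The rest of the programme that the gate did not name was read in the same barcodes. These cells were chosen by their mitotic RNA, so every gene of the contrast against other barcodes counts as used by the choice and no test was made. Of 5275 genes with at least 20 CPM, 400 were at least 2-fold higher in mitotic barcodes in all 4 libraries (7.58%) and 237 at least 2-fold lower (4.49%), and the median gene stood 0.20 higher on the log2 scale (with 1 CPM added).

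Of the 400 higher genes 82 were on the mitosis lists, gate genes included, and 0 of the 237 lower ones were. All 10 measured cyclins and kinases (median log2 ratio 4.14), 5 of 6 passenger complex genes (4.18), 16 of 17 kinetochore and spindle checkpoint genes (3.89) and all 21 spindle motors and microtubule factors (4.01) were at least 2-fold higher in all 4 libraries. So were 15 of 16 condensin and mitotic chromatin genes (3.0) and 5 of 7 cytokinesis factors (3.04), but only 4 of 15 genes of the anaphase promoting complex (0.71). S phase genes followed with 21 of 27 (1.97).

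Outside the cell cycle lists the highest ratios belonged to Pimreg (median log2 ratio 5.29), Cdca3 (5.09), Hist1h2ae (5.0), Mxd3 (4.97), Shcbp1 (4.82), Hist1h1b (4.77), Pclaf (4.75) and Esco2 (4.74). Most of these are themselves known as genes of dividing cells: Cdca3 triggers entry into mitosis, Pclaf and Esco2 act at replicated DNA, and the Hist1 genes encode histones, whose near-identical copies make single values uncertain. S phase RNA was often present as well: 73.0, 69.5, 64.9 and 79.4% of mitotic barcodes held at least 5 UMIs of Mcm3, Mcm5, Mcm6, Gins2, Dtl, Clspn and Uhrf1. After thinning, at least 2 such UMIs were found in 42.3, 42, 39.8 and 41.3% of mitotic against 2.96, 3.31, 9.52 and 6.82% of other barcodes.

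The naive, memory and progenitor list and the quiescence list together held 19 of the 237 lower genes and 0 of the 400 higher ones. Of the naive, memory and progenitor genes 13 of 16 were at least 2-fold lower in all 4 libraries (median -2.97), and of the quiescence genes 7 of 10 (median -1.56). Il7r, the survival cytokine receptor of resting T cells, read 38.2, 48.9, 35.9 and 48.5 CPM in mitotic against 826, 788, 448 and 409 CPM in other barcodes. S1pr1, the receptor that guides T cells out of lymph nodes, had a median log2 ratio of -3.54, beside Igfbp4 (-4.45), Il6ra (-3.92), Tcp11l2 (-3.80), Rflnb (-3.62) and Socs3 (-3.58).

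Effector and metabolic genes lay between. Gzmb, the main granzyme of killer cells, had a median log2 ratio of 1.81, and the inhibitory receptors Havcr2 and Pdcd1 had 1.64 and 1.36, and the first 2 of these were at least 2-fold higher in all 4 libraries while Pdcd1 was not. Of the oxidative phosphorylation genes 0 of 24 passed (median 0.76), and of the glycolysis genes 6 of 15 (0.93). Type I interferon-stimulated genes were lower in 5 of 20 (median -1.0).

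The share of mitotic barcodes addresses whether the guide against Arid1a went with more dividing CD8 T cells. Mitotic barcodes made up 3.49% (95% Wilson interval 3.10 to 3.93), 3.57% (3.17 to 4.03), 9.49% (8.95 to 10.1) and 11.6% (11 to 12.1) of passing barcodes, from 267 of 7646, 256 of 7169, 1016 of 10711 and 1479 of 12790. Both sgArid1a libraries stood above both sgScr libraries, with a ratio of group means of 2.98 and a difference of 6.99 percentage points. The exact two-sided permutation test gave p = 0.333, the smallest that 2 libraries against 2 can give. The intervals cover counting error only.

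Thinning each barcode to 2000 UMIs and asking for 3 gate UMIs removed the differences in depth. The shares became 2.21, 2.32, 9.51 and 6.96%, a difference of 5.97 points and a ratio of 3.64 (exact permutation p = 0.333). This left out 548, 651, 3929 and 1050 shallower barcodes, 36.7% of sgArid1a replicate 1 against 7.17 to 9.08% of the other three. Among the barcodes deep enough to be thinned, the unthinned shares at 5 UMIs were 3.73, 3.91, 15.0 and 12.6%. Groups did not overlap on either count, but the order of the 2 sgArid1a libraries changed.

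**Figure D2:**
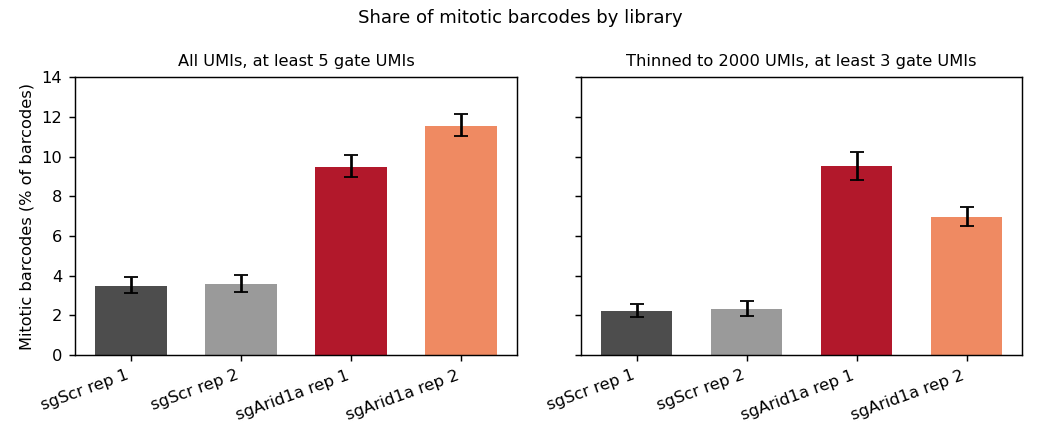
Left, mitotic barcodes with all UMIs and at least 5 gate UMIs, as a percentage of passing barcodes in each library. Right, barcodes with at least 3 gate UMIs after thinning to 2000 UMIs, as a percentage of passing barcodes with at least 2000 UMIs. Bars start at 0 and error bars are 95% Wilson intervals. The sgScr bars lie at 3.49 and 3.57% (left) and 2.21 and 2.32% (right), below both sgArid1a bars in each panel.

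The earlier phase showed the same order. Barcodes with at least 5 S phase UMIs and at most 1 gate UMI were 1.18, 1.27, 3.02 and 3.88% of passing barcodes (90, 91, 323 and 496 barcodes; exact permutation p = 0.333). For each such barcode there were 2.97, 2.81, 3.15 and 2.98 mitotic barcodes, with both sgArid1a values just above both sgScr values (exact permutation p = 0.333, ratio of means 1.06). Without barcodes of 2 or more beta segments the mitotic shares were 2.83, 2.90, 8.88 and 10.2%.

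The receptor beta segment, read as the Trbv gene with the most UMIs (at least 2), showed which T cells were dividing. It was called in 253, 244, 869 and 1323 mitotic barcodes. Trbv13-1 was carried by 7.51, 7.79, 36.2 and 35.9% of these (19, 19, 315 and 475 barcodes). Trbv20 was carried by 0.395, 1.23, 21.4 and 20.6% (1, 3, 186 and 273 barcodes).

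Together the pair made up 7.91, 9.02, 57.7 and 56.5% of typed mitotic barcodes. Both sgArid1a libraries lay far above both sgScr libraries for each segment (exact permutation p = 0.333, the smallest possible). Among other barcodes the same segments were less uneven: Trbv13-1 took 7.61, 7.96, 11.2 and 9.93% and Trbv20 took 2.76, 2.57, 6.64 and 5.88%.

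Other segments filled the sgScr mitotic cells. Trbv19 took 19.4, 20.5, 3.11 and 4.23%, Trbv16 took 16.2, 16.0, 9.67 and 8.77%, Trbv13-2 took 13.0, 13.5, 1.61 and 1.97%, and Trbv4 took 7.51, 7.38, 0.345 and 0.756%. In each of these shares both sgScr libraries lay above both sgArid1a libraries. The shares of a library have a fixed sum, so the large sgArid1a shares of Trbv13-1 and Trbv20 lower those of other segments. Of all Trbv16 barcodes 6.97, 7.21, 12.67 and 13.96% were mitotic, so this value was higher in both sgArid1a libraries. For Trbv19, Trbv13-2 and Trbv4 the mitotic part of the segment's barcodes was lower in both sgArid1a libraries. Trbv3 took 1.19, 2.46, 7.83 and 8.09%, with higher values in sgArid1a.

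The chance that 2 mitotic barcodes of a library share a segment was 10.3, 10.7, 19.8 and 19.1%, against 6.53 to 6.95% among other barcodes. Read the other way, 30.6 and 35.1% of all Trbv13-1 barcodes and 30.5 and 34.5% of all Trbv20 barcodes in the sgArid1a libraries were mitotic, against 4.15 and 4.34% and 0.625 and 2.17% in sgScr. When both segments were left out, mitotic barcodes were 4.31, 4.50, 6.57 and 7.18% of typed barcodes, a ratio of 1.56 where all typed barcodes (4.20, 4.43, 12.0 and 13.0%) gave 2.90. Both segments had the largest shares of sgArid1a mitotic barcodes in these same data, so leaving them out lowers that ratio by the choice itself. The segments that filled sgScr mitotic cells were kept, and the part of the pair in the group difference was not tested. A segment is shared by many clones, so these shares describe segments and not clones.

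**Figure D3:**
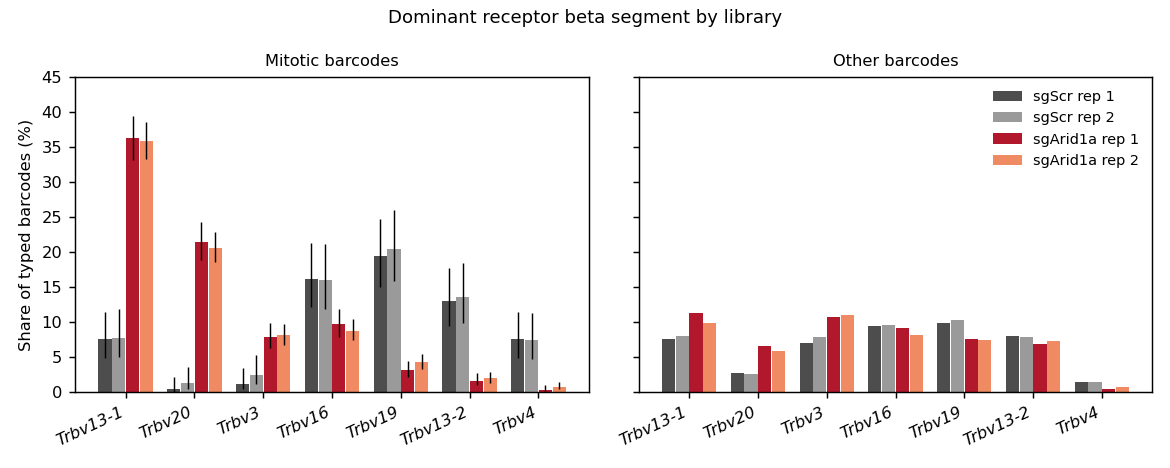
Share of typed barcodes carrying each of 7 receptor beta segments, in mitotic (left) and other barcodes (right) of the 4 libraries; bars start at 0 and error bars on the left are 95% Wilson intervals. Trbv13-1 and Trbv20 reach 36.2 and 21.4% in mitotic barcodes of sgArid1a replicate 1, while Trbv19 and Trbv13-2 are higher in both sgScr libraries.

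Gene expression was then compared between the groups within mitotic cells, with the UMIs of the mitotic barcodes summed per library (4792431, 4270106, 11432315 and 28511512 UMIs). The targeted gene came first. Arid1a RNA stood at 77.4, 85.0, 70.2 and 67.9 CPM, a log2 difference of -0.16 ± 0.09 (SE) that did not pass edgeR's quasi-likelihood test (adjusted p = 0.325). In the other barcodes the difference was -0.24 (adjusted p = 0.011 in edgeR). A cut gene can still be transcribed and counted, so this level is a weak check of the labels.

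Across 10696 tested genes, 632 changed at an adjusted p under 0.05 (5.91%), 358 higher (3.35%) and 274 lower (2.56%) in sgArid1a, and the median log2 difference was -0.02. In the other barcodes the same test called 5280 of 12412 genes (42.5%), 22.1% higher and 20.4% lower. Groups did not overlap for 54.7% of the genes tested in mitotic cells, so a lack of overlap alone says little.

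**Figure D4:**
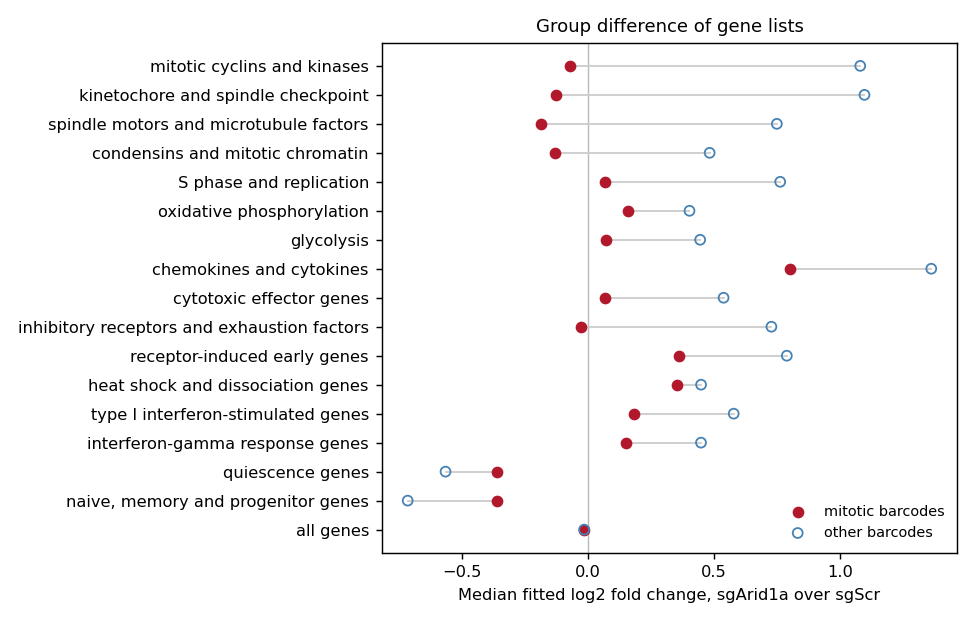
Median fitted log2 difference, sgArid1a over sgScr, of the tested genes of 16 gene lists and of all genes, in mitotic barcodes (filled red) and in other barcodes (open blue). In mitotic barcodes the 5 cell cycle lists drawn (the top rows) lie between -0.19 and 0.07 and the chemokine and cytokine list at 0.80; the open symbols of those 5 lie between 0.48 and 1.10.

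Once cells were mitotic, 9 of 115 genes on the mitosis lists other than the gate genes fell (7.83%, against 2.56% of all tested genes) and 1 rose (0.87%, against 3.35%). Of 13 cyclins and kinases 1 fell and 0 rose (median -0.07), of 8 passenger complex genes 0 changed (-0.16), and of 17 anaphase promoting complex genes 1 rose (-0.04). Of 24 kinetochore and checkpoint genes 1 fell (-0.13), of 28 spindle genes 4 fell (-0.19), of 10 cytokinesis factors 2 fell (-0.28) and of 16 condensin and chromatin genes 2 fell (-0.13). S phase genes gave 1 rise in 32 (3.1%, near the share of all tested genes, median 0.07), and DNA damage genes 0 calls in 21.

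Each of these falls was under 1 on the log2 scale. Cdc25b, the phosphatase that activates the mitotic kinase, fell by 0.55 on the log2 scale, the kinesins Kif14 and Kif23 fell by 0.47 and 0.45, the spindle proteins Ckap2 and Ckap2l fell by 0.48 and 0.44, and the condensin subunit Ncapd2 fell by 0.41. Mki67, the Ki-67 proliferation antigen, read 419, 550, 373 and 295 CPM and fell by 0.46 ± 0.12 (edgeR adjusted p = 0.0375). The other calls were Ska3 of the outer kinetochore, Cntrob of the centriole, Anapc11 (the RING subunit of the anaphase promoting complex) and the S phase gene Dtl. Without sgScr replicate 2 all of these calls but Cdc25b were lost, with Mki67 at -0.27 (edgeR adjusted p = 0.35), Ckap2 at -0.27 (0.518) and Kif23 at -0.35 (0.227). Without sgArid1a replicate 2 Mki67, Kif14, Kif23, Ckap2, Ckap2l, Ska3, Cntrob and Dtl were lost as well (Mki67 at -0.28, edgeR adjusted p = 0.0696; Ckap2l at -0.26, edgeR adjusted p = 0.138). Without sgScr replicate 1 Kif14, Ska3, Anapc11 and Dtl were lost (edgeR adjusted p of 0.132, 0.138, 0.168 and 0.192), and without sgArid1a replicate 1 Anapc11 (0.089).

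Granzymes split. Gzmk, a granzyme of memory-like and early effector CD8 T cells, read 389, 401, 128 and 132 CPM in the mitotic sums, and both sgScr libraries lay about 3 times above both sgArid1a libraries. The fall was 1.53 ± 0.08 (edgeR adjusted p = 7.41e-09). Gzmk lies on chromosome 13 at 113171608 to 113225908 (GRCm38). In other barcodes it read 115, 130, 109 and 115 CPM (-0.10, edgeR adjusted p = 0.243), and the difference between the mitotic and the other effect was itself called (-1.42 ± 0.06).

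Shares of cells gave the same picture. After thinning, a Gzmk UMI was found in 50.6, 43.1, 20 and 21.0% of mitotic barcodes. As a background, barcodes with UMIs of the naive T cell genes Ccr7 and Lef1 and no gate UMI, which should largely lack the gene, held it in 2.23, 2.27, 4.55 and 3.8%. Their median depth before thinning was 3972, 3842, 3008 and 3891 UMIs, against 15771, 15409, 10363 and 17794 UMIs in the thinned mitotic barcodes; unthinned, the mitotic shares were 79.0, 77.0, 48.7 and 59.2%.

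Gzmb moved the other way and read 516, 524, 767 and 801 CPM, a rise of 0.67 ± 0.08 (edgeR adjusted p = 6.95e-05) with no overlap of the groups. It was smaller than the rise in other barcodes, where Gzmb read 95.7, 112, 290 and 324 CPM (1.59), and the difference of the effects was -0.91. Thinned shares of mitotic barcodes with Gzmb were 41.9, 36.9, 52.1 and 54.3%, against 0.855, 1.17, 3.72 and 3.17% in the Ccr7 and Lef1 background.

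Gzmc read 74.7, 56.2, 158 and 249 CPM and rose by 1.71 ± 0.17 (edgeR adjusted p = 1.81e-05). Its neighbours Gzmd, Gzme and Gzmf also rose (2.01, 1.81 and 1.79), but these near-identical copies can share reads. Gzma read 40.1, 153, 17.8 and 33.1 CPM and fell by 1.76 ± 0.37 (edgeR adjusted p = 0.0116). The sgScr libraries differed widely, and without sgScr replicate 2 Gzma gave -0.54 (edgeR adjusted p = 0.21).

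Of 19 cytotoxic effector genes 8 rose (42.1%, against 3.35% of all tested genes) and 3 fell (15.8%, against 2.56%). The median was 0.07, against -0.02 over all genes. The pore-former Prf1 read 193, 181, 254 and 269 CPM and rose by 0.56. The serpin gene Serpinb6b fell by 0.46, a call lost without sgScr replicate 1 (edgeR adjusted p = 0.0809).

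Chemokines and cytokines gave 8 rises (57.1%) and 1 fall (7.14%) among 14 tested, against 3.35% and 2.56% of all tested genes. The median was 0.80, against -0.02 over all genes. Xcl1, a chemokine that draws cross-presenting dendritic cells, read 209, 188, 689 and 527 CPM, all sgArid1a values above all sgScr values. It rose by 1.69 ± 0.12 (edgeR adjusted p = 3.97e-07). In other barcodes Xcl1 read 95.4, 117, 391 and 371 CPM.

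Ccl1, a chemokine of activated T cells, read 68.6, 32.8, 232 and 156 CPM and rose by 1.98 ± 0.23 (edgeR adjusted p = 9.22e-05). Ifng, the gene of interferon gamma, read 96.4, 60.7, 177 and 149 CPM and rose by 1.11 ± 0.16 (edgeR adjusted p = 5.81e-04). Groups did not overlap for either.

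The colony-stimulating factors rose too. Csf2 read 7.30, 4.45, 41.9 and 23.5 CPM (2.48), and Csf1 rose by 1.15. Tnf read 5.22, 7.26, 13.2 and 12.5 CPM (1.12), and the lymphotoxins Lta and Ltb rose by 1.54 and 0.49. The fall was Il10, an anti-inflammatory cytokine, at 3.34, 2.58, 0.525 and 0.316 CPM (-2.87 ± 0.47, edgeR adjusted p = 0.00201). It rests on few UMIs, and after thinning Il10 was too low to be fitted.

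The receptor genes Klrk1, Klrd1 and Klrc1, named by the size of their rise or after their values were seen, were called. Klrk1, the activating NKG2D receptor, read 67.0, 79.6, 148 and 142 CPM and rose by 1.06 ± 0.09 (edgeR adjusted p = 4.89e-06), though after thinning it gave 0.52 (edgeR adjusted p = 0.184). Klrd1, the CD94 partner chain, read 182, 172, 279 and 293 CPM and rose by 0.77. Klrc1, the inhibitory NKG2A chain, read 66.1, 67.7, 117 and 124 CPM and rose by 0.92, but after thinning it gave 0.71 (edgeR adjusted p = 0.0666).

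The signalling adaptor Fcer1g read 4.38, 3.51, 19.2 and 20.2 CPM and rose by 2.38. Of the other genes on the natural killer list, Ncr1 and Gata2 were at or near 0. Klrb1c, Tyrobp and Klri2 stood at 0.417 to 3.06 CPM, and Eomes at 131, 107, 56.2 and 50.8 CPM. The phosphatase gene Ptpn6, which encodes SHP-1, read 99.3, 109, 198 and 207 CPM and rose by 1.04 ± 0.08 (edgeR adjusted p = 1.24e-06). Rgs1 and Nrgn rose with little spread within groups. Rgs1, a brake on chemokine receptor signalling, read 102, 89.5, 204 and 208 CPM (1.18), and Nrgn, which encodes the calmodulin-binding neurogranin, read 259, 242, 528 and 541 CPM (1.17 ± 0.08, edgeR adjusted p = 2.51e-07).

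Of 12 CD8 T cell markers 2 fell (16.7%, against 2.56% of all tested genes) and 0 rose. The 2 were Cd247 and the receptor alpha constant gene Trac, while Cd3e and Cd8a were not called. Trac fell by 0.31, a call lost without sgScr replicate 1, sgScr replicate 2 or sgArid1a replicate 1 (edgeR adjusted p of 0.113, 0.278 and 0.0598). Cd247, the CD3 zeta chain, read 228, 211, 119 and 134 CPM and fell by 0.72 ± 0.08 (edgeR adjusted p = 8.96e-05). Cd7 read 121, 104, 48.4 and 56.7 CPM and fell by 1.02. Cxcr3, the receptor for interferon-induced chemokines, read 57.0, 90.2, 32.5 and 39.8 CPM and fell by 0.92. Without sgScr replicate 2 the Cxcr3 value was -0.59, still called.

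Eomes, a transcription factor of effector and memory CD8 T cells, read 131, 107, 56.2 and 50.8 CPM and fell by 1.09 ± 0.11 (edgeR adjusted p = 1.81e-05). In other barcodes it read 39.8, 48.4, 38.1 and 41.0 CPM. Foxo1, Lef1 and Slamf6, a surface marker of progenitor-like cells, fell by 0.82, 0.76 and 0.86. Of 19 naive, memory and progenitor genes 5 fell (26.3%) and 2 rose (10.5%), against 2.56% and 3.35% of all tested genes. The median was -0.36, but 0.10 without barcodes typed as Trbv13-1 or Trbv20. Tcf7, a master factor of the progenitor state, read 45.3, 60.2, 29.1 and 46.8 CPM (-0.36 ± 0.17, edgeR adjusted p = 0.240), with overlapping groups.

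The list of inhibitory receptors and exhaustion factors did not share a direction (median -0.03). Of its 19 genes 4 rose (21.1%, against 3.35% of all tested genes) and 3 fell (15.8%, against 2.56%). Pdcd1, the PD-1 gene, read 500, 474, 441 and 457 CPM (-0.05 ± 0.08, edgeR adjusted p = 0.787), and Havcr2, the TIM-3 gene, read 102, 88.5, 96.7 and 90.4 CPM (0.04, edgeR adjusted p = 0.862). Tnfrsf9, the costimulatory 4-1BB receptor, rose by 0.43 and Nr4a3, a factor induced by receptor signalling, by 0.81. Tox2 read 3.76, 4.68, 0.787 and 0.877 CPM and fell by 2.23, also on few UMIs.

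Genes induced early after receptor signalling rose in 6 of 16 (37.5%, against 3.35% of all tested genes, median 0.36). Among them were Il2ra (0.96), Nfkbia (0.53) and Irf8 (0.52). The list of heat shock and tissue dissociation genes moved with them: 9 of 19 rose (47.4%, against 3.35%) and 0 fell (median 0.35). Fos read 7.93, 8.43, 31.9 and 29.4 CPM (1.97 ± 0.16, edgeR adjusted p = 1.24e-06), and Dusp1 rose by 1.03. The part of this list in the other rises was not tested. Of 13 quiescence genes 4 fell (30.8%, against 2.56%) and 2 rose (15.4%, against 3.35%), with a median of -0.36. Ddit4, a stress brake on growth signalling, read 133, 115, 65.6 and 77.7 CPM (-0.71), Txnip fell by 0.71, and Klf6 rose by 0.77.

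Interferon genes were called mainly upwards. Type I interferon-stimulated genes gave 5 rises and 0 falls in 30 (16.7% higher, median 0.18) and the interferon gamma list 3 rises in 23 (13.0%, median 0.15), against 3.35% higher over all tested genes. Isg15, a ubiquitin-like interferon-induced protein gene, read 10.0, 18.5, 21.5 and 34.5 CPM and rose by 1.11 ± 0.24 (edgeR adjusted p = 0.0125). Without sgScr replicate 1 it gave 0.75 (edgeR adjusted p = 0.0682), without sgArid1a replicate 2 it gave 0.71, and thinned to 2000 UMIs it turned to -0.13.

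Ifi27l2a rose by 0.47 and Bst2, the tetherin gene, by 0.45. Without sgScr replicate 1 Bst2 was not called (edgeR adjusted p = 0.0565). Of 13 genes of STING and interferon signalling only Jak2 changed (7.69% lower, against 2.56% of all tested genes). It fell by 0.47 at an edgeR adjusted p of 0.0498. That call was lost without sgScr replicate 1, sgScr replicate 2 or sgArid1a replicate 1 (-0.56, -0.35 and -0.41). Of 20 SWI/SNF genes 0 changed (median -0.09).

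Of 16 glycolysis genes 1 rose (6.25%, against 3.35% of all tested genes, median 0.07), the glucose transporter Slc2a3. Its call was lost without sgScr replicate 1 (0.47) and without sgScr replicate 2 (0.38). Oxidative phosphorylation genes gave 2 rises in 24 (8.33%, median 0.16). The 2 were Atp5g1 (0.40) and Cox5a (0.35), both lost without sgScr replicate 2 (edgeR adjusted p of 0.151 and 0.252).

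**Figure D5:**
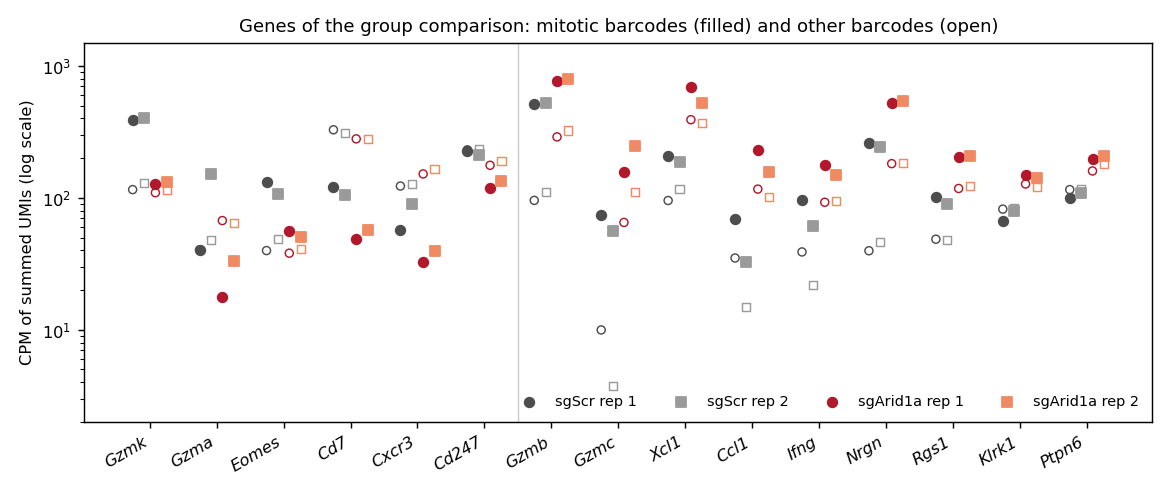
Level of 15 named genes in the summed UMIs of each library, in CPM on a log scale (grey sgScr, red sgArid1a). Filled symbols are mitotic barcodes and open symbols all other passing barcodes, each with 1 point per library. Among the filled symbols Gzmk, Eomes and Cd7 are higher in both sgScr libraries, and Xcl1, Ccl1, Gzmc, Nrgn and Klrk1 in both sgArid1a libraries. The filled sgScr points of Gzma lie at 40.1 and 153.

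Thinning each barcode to 2000 UMIs left 99 called genes, 78 of them among the 632. Still called were the falls of Gzmk, Eomes, Cd7, Cxcr3, Mki67, Serpinb6b, Ddit4 and Txnip and the rises of Xcl1, Ccl1, Ifng, Csf1, Ltb, Gzmb, Gzmc, Klrd1, Fcer1g, Ptpn6, Rgs1, Nrgn, Fos, Irf8, Nfkbia, Atp5g1 and Cox5a. No longer called were Gzma, Prf1, Cd247, Trac, Klrk1, Klrc1, Foxo1, Lef1, Slamf6, Tnfrsf9, Il2ra, Dusp1, Klf6, Isg15, Ifi27l2a, Bst2, Jak2, Slc2a3 and the cell cycle genes named above other than Mki67. Csf2, Lta, Tnf, Il10, Tox2, Nr4a3 and Cntrob were too low to be fitted. Mki67, Gzma, Jak2, Slc2a3, Kif14, Ckap2, Ckap2l and Dtl were not called by DESeq2 on all UMIs.

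Whether the group effect in mitotic cells differed from that in the other barcodes was tested as the difference of the 2 effects within libraries. Of 12922 genes 1707 passed (13.2%), 478 positive (3.70%) and 1229 negative (9.51%). Negative were 18 of 24 kinetochore, 20 of 28 spindle and 29 of 32 S phase genes, but 4 of 17 anaphase promoting complex genes, 7 of 17 cell cycle transcription regulators and 5 of 21 DNA damage genes, beside the higher gate level of the other sgArid1a barcodes (53.2 and 35.2 CPM against 14.6 and 18.2). With the other barcodes limited to those without any gate or S phase UMI, a choice made after seeing the data, 1146 of 12171 genes passed (9.42%), 296 positive (2.43%) and 850 negative (6.98%). Of the kinetochore genes 2, of the spindle genes 5 and of the S phase genes 1 were then negative. The choice took cycling barcodes out of the other side, so these lower counts were partly fixed by it. The S phase genes used for it have no UMIs there by construction.

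Effector and inhibitory genes were also mostly negative in that narrower comparison. Of the cytotoxic genes 15 of 20 were negative against all other barcodes and 13 of 19 against the barcodes without cell cycle UMIs. On the list of inhibitory receptors and exhaustion factors these counts were 17 and 14 of 19. Of all genes tested, 9.51 and 6.98% were negative. Pdcd1 read 128, 144, 219 and 235 CPM in other barcodes and rose there by 0.76, against -0.05 in mitotic cells (difference -0.79). Havcr2 read 20.2, 23.7, 35.3 and 34.3 CPM in other barcodes (difference -0.64). That call was lost after thinning (-0.74, edgeR adjusted p = 0.130) and without barcodes typed as Trbv13-1 or Trbv20 (-0.32, edgeR adjusted p = 0.119).

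For Cxcr3 the signs were opposite, a fall of 0.92 in mitotic cells and a rise of 0.36 in other barcodes (123, 127, 152 and 164 CPM), with a difference of -1.26. Gzma likewise fell in mitotic cells and rose by 0.60 in others (40.4, 47.9, 67.2 and 63.9 CPM), a difference of -2.22. Ptpn6 went further up in mitotic cells than elsewhere (difference 0.48). After thinning this difference was 0.58 and no longer called (edgeR adjusted p = 0.105). Nrgn rose less in mitotic cells than in other barcodes, where it read 39.7, 46.4, 182 and 183 CPM (difference -0.93).

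The group comparison mixed receptor segments, since Trbv13-1 and Trbv20 filled most typed sgArid1a mitotic barcodes. Without barcodes typed as either segment 400 of 10183 genes were called (3.93%), 239 higher (2.35%) and 161 lower (1.58%). Barcodes without a called segment, 5.24, 4.69, 14.5 and 10.5% of all mitotic barcodes, were kept and can carry either segment. Fewer sgArid1a barcodes entered this comparison, and the part of that in the lost calls was not tested. The cytokine list again had 8 rises and 1 fall, while the naive, memory and progenitor list went from 5 falls and 2 rises to 2 falls and 3 rises, and its median turned from -0.36 to 0.10. Tcf7 turned from -0.36 to 0.24, called on neither side. Lef1 and Slamf6 were among the calls lost (-0.35 and -0.36, edgeR adjusted p of 0.155 and 0.109), as were Mki67, Gzma, Cox5a and Prf1 (Prf1 at 0.29, edgeR adjusted p = 0.116), and Gzmb gave 0.33 (edgeR adjusted p = 0.0353).

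Within the 2 sgArid1a libraries the mitotic cells carrying Trbv13-1 or Trbv20 could be set beside those carrying other segments. Gzmb read 954 and 930 CPM in replicates 1 and 2 for the pair, against 549 and 609 for the rest. Tcf7 read 12.5 and 24.2 against 55.0 and 77.0. Values for the pair were the higher for Gzmb and the lower for Tcf7 in both libraries.

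The chemokines ran the other way, with Xcl1 at 513 and 335 CPM for the pair against 941 and 754, and Ccl1 at 185 and 81.6 against 281 and 235. Gzmk read 141 and 142 against 111 and 111, so its level was below the sgScr values in both subsets. Nrgn was nearly equal at 533 and 545 against 505 and 523. Ifng read 227 and 152 against 115 and 150, so only replicate 1 showed a clear gap. These values are a description, with no test.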

How the data were processed

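Gene expression matrices of 4 libraries held raw UMI counts of 32285 genes per barcode, deposited by the authors. The file headers name Cell Ranger 6.0.1, and the submitters' processing notes name Cell Ranger 3.0.2, Seurat and mm10. Barcodes below 500 genes or above 10% mitochondrial UMIs were dropped, and raw counts of mitotic and of other barcodes were summed per library. Group effects were tested with edgeR 4.0.16 in R 4.3.3 (quasi-likelihood, TMM, low-count filter, Benjamini-Hochberg over all tested genes), and the difference of effects with library as a block. A standard error is the absolute log2 fold change divided by the square root of F. Shares were compared by exact two-sided permutation in Python 3.11.15, thinned values after drawing 2000 UMIs per barcode. Library totals were 32484099 to 81916795 UMIs. DESeq2 1.42.0, other gates and left-out libraries were alternatives. On simulated counts the group test recovered 82.8% of 198 genes changed 2-fold among 10694, with 4 false calls. The difference test recovered 61.5% of 200 among 12933, with 7. Every gene had the same simulated dispersion, and mitotic and other sums were drawn independently. Only genes above a count floor were changed, so these figures do not give the error rates in the real libraries.

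The members and gene lists (552 symbols, 549 matched; Mx1, Mx2 and Mb21d1 were not matched) were chosen with earlier results of these data known. Named genes were the gate genes and 11 others always given, the 8 largest rises and 8 largest falls, the 5 largest differences of effect in each direction, the 8 largest and smallest mitotic to other ratios (rises, falls and differences from 50 CPM, ratios from 20 CPM), and the 2 smallest p of each list with a call. Another 26 named genes, with Gzmd, Gzme, Gzmf and the marker and subset examples, were chosen after their values were seen. Gene coordinates are from GENCODE M21 on GRCm38. Some genes that this rule names are not reported here.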

Additional observations from a re-analysis of the deposited data

Results flagged for a closer look

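In the genes below the sgArid1a effect in mitotic cells differed from that in the other barcodes of the same libraries (edgeR, adjusted p under 0.05), the 5 lowest and 5 highest differences among genes with at least 50 CPM. Negative differences were those of Pimreg (-2.29), Gzma (-2.22), Esco2 (-2.20), Shcbp1 (-2.0) and Gzmc (-1.97). Positive ones were those of Actn1 (0.73), Crlf3 (0.61), Atp1b3 (0.59), Snhg1 (0.56) and Klf6 (0.52). After thinning to 2000 UMIs Actn1, Snhg1 and Klf6 gave 0.50, 0.50 and 0.26 and were no longer called (edgeR adjusted p of 0.495, 0.416 and 0.694).

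Against other barcodes without any gate or S phase UMI, chosen after seeing the data, the cell cycle genes Pimreg, Esco2 and Shcbp1 gave -0.37, -1.05 and -0.14 (edgeR adjusted p of 0.893, 0.375 and 0.948). That choice took cycling barcodes out of the other side, so these smaller differences were partly fixed by it. Gzma and Gzmc gave -2.65 and -2.32, and Actn1, Crlf3, Atp1b3, Snhg1 and Klf6 gave 0.74, 0.48, 0.47, 0.56 and 0.46.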

How the results depend on the processing

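The share of mitotic barcodes was higher in sgArid1a under every setting run for it. With other gates, thinning or single beta segments the differences were 3.56 to 8.04 percentage points. When a library was left out they were 4.69 to 7.25 points. Among typed barcodes the difference was 8.20 points, and 2.47 points without Trbv13-1 and Trbv20, 2 segments chosen from these same data. Counts of called genes in mitotic cells moved: 358 rises became 641 with no filter on low counts and 56 after thinning, and 274 falls became 43 after thinning, 161 without Trbv13-1 and Trbv20 and 80 with DESeq2. Leaving out each library gave 134 to 559 rises and 131 to 405 falls; without sgScr replicate 2, 265 genes were called, 222 of them among the 632. Of the differences between mitotic and other barcodes, 478 positive became 47 after thinning, 271 with single beta segments, 274 without Trbv13-1 and Trbv20 and 296 against barcodes without cell cycle UMIs. The 1229 negative became 222 after thinning and 763 without the 2 segments; leaving out each library gave 202 to 319 positive and 642 to 946 negative. The cause was not tested, except that thinning, the low-count filter, left-out segments and left-out libraries change how many counts or samples enter.

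Deviations of same-numbered libraries from their group means had a correlation of 0.000377 over 3909 genes, so no pairing by replicate number showed. With 2 libraries per group a single correlation cannot exclude that same-numbered libraries were paired. With the replicate number as a block, 394 genes rose and 295 fell, and 603 of these 689 were among the 632.

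Among named genes, 182 values lost their call, and 4 values that were called in either setting turned sign: Isg15 after thinning (-0.13), Il7r without barcodes of 2 or more segments (-0.59), the Klrk1 difference of effects after thinning (-0.029) and the Ccl1 difference without the 2 segments (0.54). Values called in neither setting turned sign too, among them Tcf7 (0.24) and Havcr2 (-0.21) without the 2 segments. Genes with low counts could not be fitted after thinning.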
